A study of Mus musculus with 6 samples.

Results

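The genes described here were 8 genes known from the superficial zone of articular cartilage and its neighbouring tissues, *Prg4*, *Cilp*, *Cilp2*, *Abi3bp*, *Clu*, *Erg*, *Creb5* and *Dpt*, out of 23159 genes counted. They were chosen by name with earlier results of the same comparison of LRCs and non-LRCs known, so their differences between these groups, and the calls that the test across all genes gave them, are a description, with no p-value. The study isolated slow-cycling growth plate chondrocytes by label retention and sequenced their RNA beside that of chondrocytes that had diluted the label. In each of 3 independent experiments, 1 library of label-retaining chondrocytes (LRCs) and 1 of non-label-retaining chondrocytes (non-LRCs) were made from the same pool of littermates, which gave 6 libraries.

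All mice were homozygous for 4 alleles, *Col2a1-tTA* (inserted downstream of *Peli2*), *TRE-H2B-GFP* (at *Col1a1*), *Col2a1-creER* and *R26R-tdTomato*, and LRCs and non-LRCs shared this genotype. Doxycycline was given from P21 to P49 to stop new synthesis of the histone-GFP label, tamoxifen was given at P46 and P47 to mark *Col2a1-creER* cells red, and cells were collected at P49. LRCs were the tdTomato+ cells with the brightest GFP, about 10000 per library, and non-LRCs were tdTomato+ cells with middle to low GFP, about 50000 per library. Both drivers, tTA and creER, were under *Col2a1* promoters, so any cell type with an active *Col2a1* promoter could carry the label. By the study's methods whole epiphyses, which carried both the growth plate and the joint surface, were dislodged by hand. Cells were released from them with collagenase, which left most labelled cells of the joint surface in the tissue, and only CD45-negative cells were sorted. By the study's count, nearly all of the tdTomato+ cells released were growth plate chondrocytes. By in situ hybridization the study also found *Prg4* RNA in the resting zone, at P21 far fainter than at the joint surface. The number of cells per library and the cell group cannot be told apart.

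The superficial zone is the thin layer of flattened chondrocytes at the joint surface. Its cells secrete lubricin, the mucin-like glycoprotein encoded by *Prg4*, which coats the cartilage and lowers friction between the sliding surfaces. In joint development and in culture, the transcription factors Erg and Creb5 and signals of the TGF-beta and EGF receptor families act on this programme. The matrix proteins Cilp, Cilp2, Abi3bp and Dpt are secreted around chondrocytes and fibroblasts, and clusterin, encoded by *Clu*, is a secreted chaperone that is abundant in articular chondrocytes.

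*Prg4* lies on the minus strand at chr1:150449412-150466165 (GRCm38, GENCODE vM21). The repeated part of its coding sequence is shown because it is what makes lubricin a mucin-like protein: a unit of 24 bases recurs, in frame and with at most 5 mismatches, at 56 positions, which together cover 36.5% of the 3663 coding bases of the longest coding transcript. No copy of the unit was found in the longest coding sequences of the other 7 genes. The stretch below lies at chr1:150455610-150455897 on the minus strand, within exon 7 of 13, with the matching copies in capitals.
*Prg4* coding repeat: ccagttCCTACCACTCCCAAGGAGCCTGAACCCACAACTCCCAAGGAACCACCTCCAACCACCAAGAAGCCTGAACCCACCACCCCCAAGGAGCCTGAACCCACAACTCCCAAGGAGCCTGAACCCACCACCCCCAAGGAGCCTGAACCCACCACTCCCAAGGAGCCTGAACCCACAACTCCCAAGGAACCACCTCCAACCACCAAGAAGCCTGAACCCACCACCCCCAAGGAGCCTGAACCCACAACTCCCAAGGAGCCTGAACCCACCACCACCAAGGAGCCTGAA
The exons of *Prg4* share 204 of 4280 bases with exons of *Tpr* on the opposite strand, and the strand setting of the counting is not given in the sources used here. The other genes with shared exon bases numbered 1, *Creb5*, which shared 164 of 25021 bases with the small RNA gene *Gm25818*.

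Of the 8 genes, 5 matched the RefSeq promoter table on GRCm38.p6, with 8 start sites among them. *Prg4*, *Clu* and *Abi3bp* did not match. In the 250 bases before each start, both strands were searched for TGACG (the short form of the cAMP response element, bound by CREB factors), TGACGTCA (the full element, which contains the short form on each strand), TGANTCA (AP-1), CCGGAAG (ETS factors), GTAAACA (forkhead factors) and TATAAA (the TATA box). The full cAMP response element was in 1 of the 8 windows, at the first start of *Creb5*, and in 1.55% of all 32851 promoters. The AP-1 motif, held by 6.75% of promoters, was at the second start of *Creb5*. The string TATAAA, held by 12.4%, was at 1 of the 3 starts of *Erg*, on the strand opposite to the gene. Neither the ETS motif (6.91% of promoters) nor the forkhead motif (3.17%) was in any of the 8 windows. Upstream sequences are shown for a gene that was higher in every LRC library, *Cilp*, and for the one that was not, *Creb5*. For *Cilp* the sequence is chr9:65264930-65265179 on the plus strand and holds none of the exact strings searched. The run TATATAA near its end, a variant of the TATA box, was not matched by the string TATAAA. For *Creb5* it is chr6:53287053-53287269 on the plus strand, with the full element in capitals, 12 bases before the start of the GENCODE gene.
*Cilp* upstream: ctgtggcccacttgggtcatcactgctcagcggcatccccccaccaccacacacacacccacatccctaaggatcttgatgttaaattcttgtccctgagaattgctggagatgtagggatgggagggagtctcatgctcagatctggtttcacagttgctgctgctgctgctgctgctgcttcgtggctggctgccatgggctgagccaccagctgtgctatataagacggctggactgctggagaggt
*Creb5* upstream: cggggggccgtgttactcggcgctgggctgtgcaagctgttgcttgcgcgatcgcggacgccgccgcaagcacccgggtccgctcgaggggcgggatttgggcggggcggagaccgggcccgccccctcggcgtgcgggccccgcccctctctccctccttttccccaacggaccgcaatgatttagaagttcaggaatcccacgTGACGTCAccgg

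Total counts per library were between 18943789 and 129559872, with the smallest total in the LRC library of experiment 2, in which 1731 of the 13728 genes tested had no read, against 4 to 365 genes in the other libraries. *Col2a1*, the cartilage collagen that drives the reporters, made up 7.003% of the counts there and 10.2 to 17.4% elsewhere. The 7 chondrocyte markers were present in all libraries. Their summed level was 77739 to 219031 CPM (library-scaled counts, normalized by TMM) in LRCs and 128675 to 224366 CPM in non-LRCs. By fitted value 1 of the 7 was higher in LRCs and 6 were lower (median log2 fold change -0.47), and 0 were called. Of the 6 resting zone markers, 4 were called higher in LRCs (*Pthlh*, *Wif1*, *Gas1* and *Spon1*), where 0.874% of all genes tested were. The last 3 were picked as markers by the study from these libraries. By fitted value 5 of the 6 were higher in LRCs. The other 1, which was not called, was lower in LRCs in all 3 experiments. The filter on low counts kept all 8 of the genes.

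The genes together took up 0.342, 0.186 and 0.331% of all reads counted in LRCs of experiments 1, 2 and 3, and 0.0334, 0.0280 and 0.0218% of those in non-LRCs. Every LRC library was above every non-LRC library for 7 of the 8 genes, and *Creb5* was the exception. Across all genes tested, 8.41% had every LRC library above every non-LRC library. A gene was called where the edgeR quasi-likelihood test with the experiment as a block gave a Benjamini-Hochberg adjusted p under 0.05 over all 13728 genes and a fold change of at least 2. By this rule 5 of the 8 genes (*Prg4*, *Cilp*, *Cilp2*, *Abi3bp* and *Clu*) were called, all higher in LRCs, where 1.21% of all genes were called in either direction and 0.874% were called higher in LRCs. Since the same contrast chose the genes, nothing is read from these counts. Without the block 1 of the 8 was called (*Clu*), and without experiment 1 there were 3 (*Prg4*, *Abi3bp* and *Clu*), with log2 fold changes of 3.32 for *Cilp* and 1.93 for *Cilp2*.

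**Figure D1:**
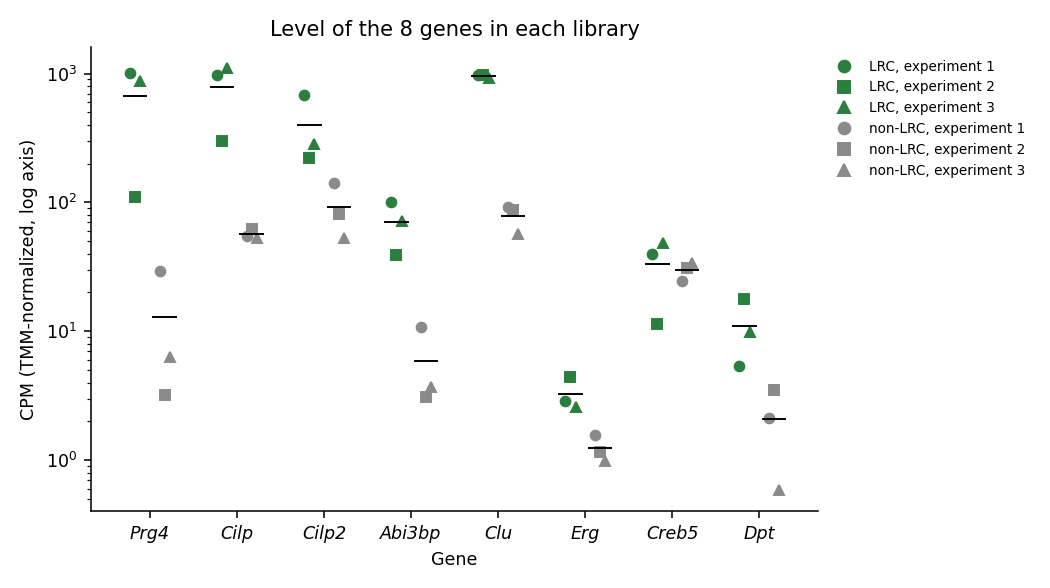
Level of each of the 8 genes in CPM (TMM-normalized, log axis) in the 3 LRC libraries (green) and the 3 non-LRC libraries (grey), with the shape of the point giving the experiment and the black line the mean of the group. LRC points lie above all non-LRC points for every gene except *Creb5*, and the *Clu* points of LRCs, 931 to 982 CPM, nearly coincide.

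*Prg4*, which encodes lubricin, was at 1017, 109 and 869 CPM in LRCs of experiments 1, 2 and 3. In the non-LRC libraries it was at 29.5, 3.22 and 6.36 CPM. Experiment 1 was the highest and experiment 2 the lowest in both groups, and the groups did not overlap. The ratio of the highest to the lowest library was 9.29 within LRCs and 9.15 within non-LRCs, while the ratio of LRCs to non-LRCs was 34.5 and 34.0 in experiments 1 and 2 and 137 in experiment 3. The fitted log2 fold change was 5.75 ± 0.49 (SE, n = 3 pairs), the largest among the 120 genes called higher in LRCs. In bulk RNA, more cells with *Prg4* and more *Prg4* RNA per cell cannot be told apart.

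*Cilp*, cartilage intermediate layer protein, which binds growth factors in the matrix (chr9:65265180-65280605, plus strand), was at 971, 300 and 1096 CPM in LRCs of experiments 1, 2 and 3. It was at 55.3, 62.3 and 53.0 CPM in non-LRCs, so that the non-LRC libraries lay within a factor of 1.18 while the LRC libraries spread over a factor of 3.66. The LRC library of experiment 2 was the low one and was still 4.81 times its non-LRC partner, against 17.5 and 20.7 times in experiments 1 and 3. The fitted log2 fold change was 3.61 ± 0.46 (SE), and 4.25 without experiment 2.

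*Cilp2*, the close relative of *Cilp* (chr8:69880369-69887687, minus strand), differed less. It was at 682, 222 and 285 CPM in LRCs and at 141, 81.5 and 52.9 CPM in non-LRCs of experiments 1, 2 and 3. Experiment 1 was the highest in both groups, and the lowest LRC library was 222 CPM against 141 CPM in the highest non-LRC library. Within the experiments the LRC library was 4.84, 2.73 and 5.38 times its partner, and the fitted log2 fold change was 2.05 ± 0.23 (SE). Experiment 2 had the smallest ratio for both relatives.

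*Abi3bp*, a secreted matrix protein of connective tissues (chr16:56477878-56690135, plus strand), was at 101, 39.4 and 72.0 CPM in LRCs. It was at 10.8, 3.06 and 3.66 CPM in non-LRCs, so that the order of the experiments, 1 above 3 above 2, was that of *Prg4* in both groups. The ratios within the experiments were 9.37, 12.9 and 19.7, and the fitted log2 fold change was 3.73 ± 0.28 (SE).

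*Clu*, which encodes the chaperone clusterin (chr14:65968483-65981547, plus strand), was the most even of the 8 genes among LRC libraries. Its level was 974, 982 and 931 CPM in LRCs, a spread of a factor of 1.05, and 92.0, 88.1 and 57.1 CPM in non-LRCs. The LRC library of experiment 2, which was the lowest for *Prg4*, *Cilp*, *Cilp2* and *Abi3bp*, was the highest for *Clu*. The ratios within the experiments were 10.6, 11.2 and 16.3, and the fitted log2 fold change was 3.64 ± 0.19 (SE), with the smallest SE of the 8 genes.

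*Dpt*, dermatopontin, a small matrix protein that binds decorin (chr1:164796644-164824266, plus strand), had few reads. Its counts were 625, 370 and 427 in LRCs and 221, 133 and 29 in non-LRCs, which is 5.35, 17.7 and 9.94 CPM against 2.14, 3.48 and 0.584 CPM. The groups did not overlap, but experiment 2 was the highest of both groups, and the ratios within the experiments ran from 2.50 in experiment 1 to 17.03 in experiment 3. The fitted log2 fold change of 2.54 ± 0.64 (SE) was not called by edgeR, and was called by DESeq2 (2.56), by limma-voom (2.16) and by edgeR on genes with at least 10 counts in every library (2.53).

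*Erg*, an ETS transcription factor of developing joints and of endothelium (chr16:95359169-95586593, minus strand), had the lowest level per length of the 8. Its counts were 334, 92 and 110 in LRCs and 162, 44 and 49 in non-LRCs, or 2.86, 4.40 and 2.56 CPM against 1.57, 1.15 and 0.986 CPM. All LRC libraries were above all non-LRC libraries, with ratios of 1.82, 3.82 and 2.60, and the fitted log2 fold change of 1.39 ± 0.67 (SE) was not called under any of the alternatives tried. Of the 8 endothelial markers, *Cdh5*, *Kdr*, *Emcn* and *Sox17* had no read in any of the 6 libraries. *Egfl7* had reads in every library, *Pecam1* and *Vwf* in most, and *Tek* in the non-LRC library of experiment 1 only. The 8 markers summed to 1.33 to 5.45 CPM in LRCs and 2.17 to 3.18 CPM in non-LRCs. The highest sum was that of the LRC library of experiment 2, which was also the highest for *Erg*, and 4.88 CPM of that sum was *Egfl7*. The lowest sum, 1.33 CPM, was that of the LRC library of experiment 3, where *Erg* was at 2.56 CPM. The part of endothelial cells in the level of *Erg* was not tested.

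*Creb5*, a transcription factor of the ATF2 family that acts on *Prg4* in articular chondrocytes (chr6:53287270-53700376, plus strand), did not separate the groups. It was at 39.7, 11.4 and 48.3 CPM in LRCs and at 24.5, 31.1 and 33.8 CPM in non-LRCs of experiments 1, 2 and 3. The LRC library was above its partner in experiments 1 and 3, with ratios of 1.62 and 1.43, and below it in experiment 2, with a ratio of 0.367. The fitted log2 fold change was -0.04 ± 0.45 (SE), and was 0.61 without experiment 2, -0.46 without experiment 1 and -0.34 without experiment 3. On all 3 pairs it was 0.30 by limma-voom and 0.15 by edgeR without the block, so *Creb5* is given no direction. The LRC library of experiment 2, where *Creb5* had 239 counts, was also the one with the most genes without reads.

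**Figure D2:**
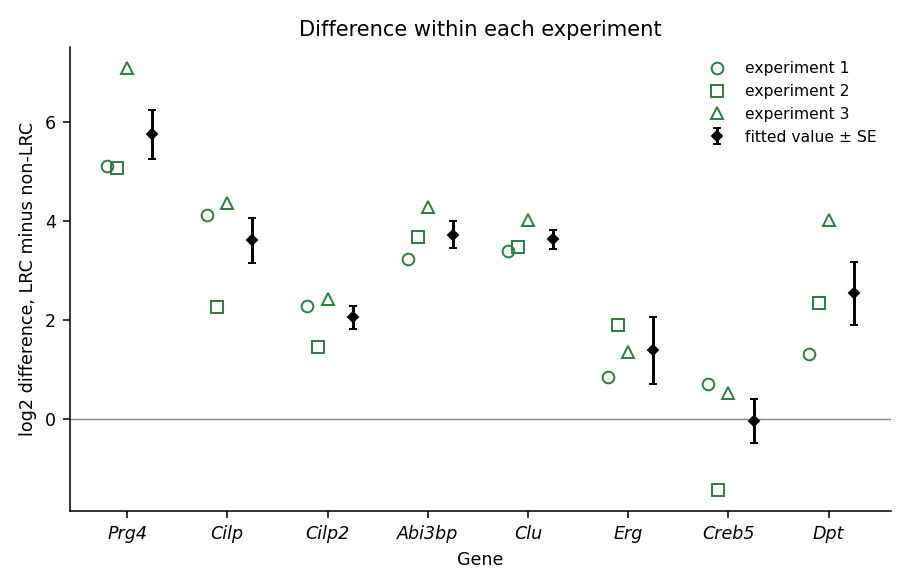
Difference in log2 CPM (prior count 2) between the LRC and the non-LRC library of each experiment (open green symbols) for the 8 genes, with the fitted log2 fold change and its SE (black). All 3 differences are above 0 for 7 genes, *Prg4* has the largest, 5.07 to 7.09, and *Creb5* has 2 above and 1 below 0.

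Levels were set side by side between genes only per kilobase of the longest coding transcript. In LRCs *Clu* was the highest at 532 ± 15.2 CPM per kb (SD, n = 3), above every library of the other genes. *Cilp* (190 ± 103 CPM per kb), *Prg4* (174 ± 127 CPM per kb) and *Cilp2* (91.9 ± 57.8 CPM per kb) came next, with ranges that overlapped each other. *Abi3bp* (13.7 ± 5.98 CPM per kb), *Creb5* (12.5 ± 7.29 CPM per kb) and *Dpt* (6.38 ± 3.62 CPM per kb) overlapped as well and lay under all libraries of *Cilp2*. *Erg* was the lowest at 1.01 ± 0.30 CPM per kb, under every library of the other genes.

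In non-LRCs the order was another one. *Clu* was again the highest (43.7 ± 10.6 CPM per kb), and its range overlapped that of *Cilp2* (21.3 ± 10.4 CPM per kb). *Cilp* (13.7 ± 1.17 CPM per kb) and *Creb5* (11.3 ± 1.82 CPM per kb) overlapped, so that *Creb5* lay above every library of *Prg4* (3.41 ± 3.75 CPM per kb) in non-LRCs and below every library of it in LRCs. *Dpt* (1.20 ± 0.84 CPM per kb), *Abi3bp* (1.13 ± 0.83 CPM per kb) and *Erg* (0.38 ± 0.09 CPM per kb) came last. The ranges of *Dpt* and *Abi3bp* overlapped each other and that of *Prg4*, and the range of *Erg* overlapped that of *Dpt* and lay under that of *Abi3bp*. The place of *Creb5* depends on the transcript: over all annotated exon bases of each gene it was at 1.19 ± 0.19 CPM per kb in non-LRCs, against 3.04 ± 3.35 CPM per kb for *Prg4*, so that *Creb5* was no longer above *Prg4* there, and at 1.32 ± 0.77 against 155 ± 114 CPM per kb in LRCs.

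The difference between the experiments was not used to choose the genes and could be tested. With the cell group in the model, the edgeR F test of the experiment terms called 0 of the 8 genes and 0 of all genes tested (0%). Of the 13728 genes tested, 3044 had an unadjusted p under 0.05. By unadjusted p the 8 genes split. *Prg4* (edgeR adjusted p = 0.106), *Cilp2* (adjusted p = 0.107) and *Abi3bp* (adjusted p = 0.112) were 3 of those with an unadjusted p under 0.05, with mean log2 CPM over both libraries of 7.44, 4.24 and 6.22 for *Prg4*, 8.28, 7.07 and 6.94 for *Cilp2*, and 5.05, 3.47 and 4.03 for *Abi3bp* in experiments 1, 2 and 3. The other 5 had adjusted p-values between 0.398 for *Dpt* and 0.894 for *Erg* by the same edgeR test. A likelihood ratio test in DESeq2 called 2666 of the 23159 genes counted for a difference between experiments. With edgeR, 932 of 11129 genes were called with at least 10 counts in every library, and 725 of 14044 without experiment 3. *Prg4*, *Cilp2* and *Abi3bp*, and no other of the 8, were called in each of these 3 settings. None of the 8 was called without experiment 1, without experiment 2, without a filter or on DESeq2 size factors.

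Other genes of the same setting were read from lists of names, which were drawn up with earlier results of these data known. Across all genes tested, 0.874% were called higher in LRCs and 1.21% in either direction. Of 24 further genes of the articular superficial zone and the synovium, 21 were tested (*Has3*, *Wnt16* and *Dcx* had too few reads), 2 were called higher in LRCs, 0 lower, and 19 were not called, with a median log2 fold change of 0.66 against -0.10 over all genes tested. *Thbs4*, a thrombospondin of tendon and joint matrix, rose from 10.1, 7.36 and 5.71 CPM in non-LRCs to 66.1, 45.5 and 50.6 CPM in LRCs of experiments 1, 2 and 3 (log2 fold change 2.83 ± 0.22, edgeR adjusted p = 0.0151). *Gdf5*, a ligand that marks the forming joint, rose from 9.27, 16.9 and 8.55 to 43.9, 48.4 and 30.5 CPM (1.87 ± 0.23, edgeR adjusted p = 0.0354). Both groups were apart in each of these genes. The hyaluronan receptor *Cd44* (0.73 ± 0.19), the matrix gene *Vit* (0.11 ± 0.14) and the hyaluronan synthases *Has1* (0.50 ± 0.22) and *Has2* (-0.07 ± 0.14, and 0.03 without experiment 3) were not called. Without experiment 1 *Gdf5* was not called (1.67), while *Thbs4* was called with each experiment left out, and neither was called without the block.

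Of 14 ligands, receptors and transcription factors known to act on *Prg4*, all were tested, and the median log2 fold change was 0.57. Here 1 was called higher in LRCs and 0 lower, where 0.874% of all genes tested were called higher. The one called was *Tgfb3*, a TGF-beta ligand, at 117, 73.3 and 85.9 CPM in LRCs and 52.8, 36.5 and 47.3 CPM in non-LRCs (1.004 ± 0.153, edgeR adjusted p = 0.0489), and it was not called without experiment 1 (0.93), without experiment 3 (1.10) or without the block (1.02). *Foxo1*, a forkhead factor needed for cartilage maintenance, was at 517, 308 and 420 CPM in LRCs and 226, 183 and 146 CPM in non-LRCs, and its log2 fold change of 1.16 ± 0.19 missed the threshold (edgeR adjusted p = 0.0540) but passed it in 6 of the 9 alternatives. The TGF-beta receptor *Tgfbr2* (0.84 ± 0.15), the coactivator *Wwtr1* (0.35 ± 0.16) and the ligand *Tgfb2* (0.02 ± 0.17, and -0.14 without experiment 3) were not called. Of 6 close homologues of the 8 genes, 3 were tested (*Vtn* and *Fev* had too few reads) and 0 were called by edgeR, with log2 fold changes of 0.14 ± 0.21 for *Atf2*, 0.42 ± 0.27 for *Fli1* and 0.40 ± 0.31 for *Atf7* and unadjusted p-values between 0.173 and 0.517. The 3 homologues were not called by DESeq2 or limma-voom either.

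**Figure D3:**
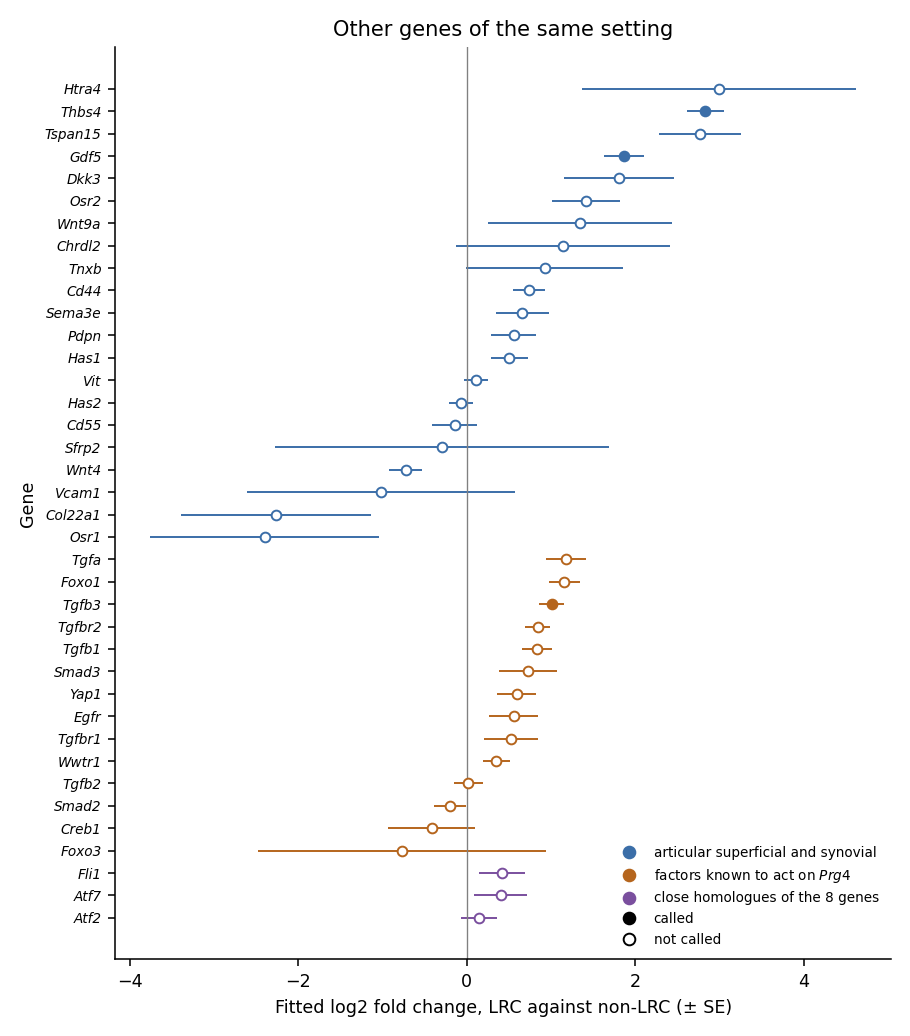
Fitted log2 fold change, LRC against non-LRC, with its SE (bars) for the 38 tested genes of the 3 lists, in blue the articular superficial and synovial genes, in orange the factors known to act on *Prg4*, in purple the close homologues. Filled points are the 3 genes called, *Thbs4* at 2.83, *Gdf5* at 1.87 and *Tgfb3* at 1.004.

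Markers of other cell types moved in part with the groups. For the calls below, the share over all genes tested was 0.874% higher in LRCs and 1.21% in either direction. The 11 fibroblast and synovial markers summed to 4516 to 5769 CPM in LRCs and 3100 to 3816 CPM in non-LRCs. Of these, 8 were tested, all 8 had a fitted value above 0 (median log2 fold change 0.87) and 1, *Col1a1*, was called higher in LRCs. The fibroblast receptor gene *Pdgfra* (2.10 ± 0.33, edgeR adjusted p = 0.0508) and the matrix gene *Dcn* (0.97 ± 0.16, edgeR adjusted p = 0.0540) were not called, with no overlap between the groups in either. *Thy1* and *Dpp4* stayed under 0.4 CPM in every library, and *Pi16* had reads in 1 library only. Hypertrophic markers ran the other way, with sums of 198 to 582 CPM in LRCs and 703 to 2077 CPM in non-LRCs, and 3 of 7 (*Panx3*, *Mef2c* and *Pth1r*) were called lower in LRCs. Tendon and ligament markers summed to 6403 to 9492 CPM in LRCs and 4815 to 7130 CPM in non-LRCs, nearly all of it *Fmod*, and osteoblast markers to 1374 to 3120 and 914 to 2113 CPM, nearly all of it *Col1a2*, which the fibroblast list also holds. Among the 6 osteoblast markers tested, 3 had a fitted value above 0 and 3 below. The 1 called was *Col1a1*, higher in LRCs and also on the fibroblast list. The osteocalcin genes *Bglap* (log2 fold change -1.14 ± 0.28) and *Bglap2* (-1.48 ± 0.37) were lower in the LRC library of all 3 experiments and were not called. Of the leukocyte and erythroid markers, in cells sorted as CD45-negative, *Hba-a1* and *Hba-a2* had no reads and *Ptprc* had reads in 1 library only. *Cd68* had reads in every library, and *Lyz2* and *Csf1r* in every library except LRCs of experiment 2. The sums were 7.23 to 22.99 CPM in LRCs and 6.58 to 11.3 CPM in non-LRCs, most of it *Cd68*. Skeletal muscle markers summed to 4.79 to 10.4 and 9.08 to 13.6 CPM. The part of these cell types in the levels of the 8 genes was not tested.

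**Figure D4:**
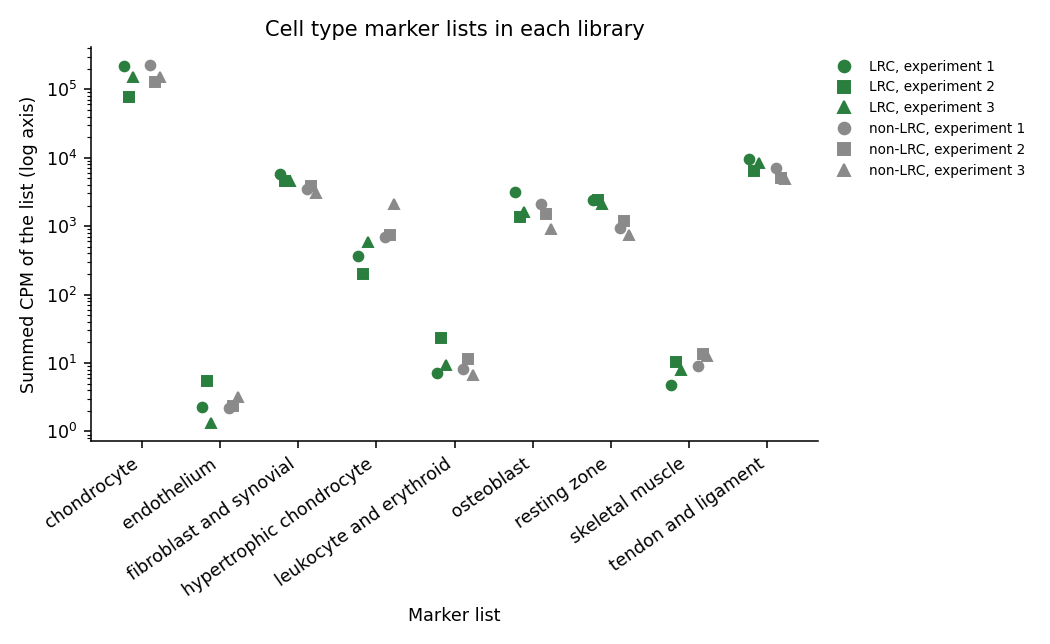
Summed CPM (log axis) of 9 marker lists in each library, LRC in green and non-LRC in grey, with the shape of the point giving the experiment. The LRC and non-LRC points are apart for the resting zone list (2119 to 2384 against 754 to 1180 CPM), the fibroblast and synovial list and the hypertrophic list, and the endothelial list stays under 6 CPM.

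For each of the 8 genes, the genes with the most similar profile over the 6 libraries were taken by Pearson's r of log2 CPM, among genes with a mean of at least 5 CPM. These 6 points are 3 pairs in 2 groups and differ in depth, and 25 to 106 genes per profile had an r of at least 0.95, so r is given as a description. For *Prg4*, *Pcsk6* (r = 0.993) and *Npr2* (r = 0.993) were among the closest, with 85 genes at or above 0.95. For *Cilp* they were *Cpe* (r = 0.993), *Luzp1* (r = 0.990) and *Igfbp5* (r = 0.989). For *Cilp2* they were *D630045J12Rik* (r = 0.999), *Pfkp* (r = 0.997) and *Flcn* (r = 0.994). For *Abi3bp* they were *Klf12* (r = 0.998), *Arhgap17* (r = 0.997) and *Gpr64* (r = 0.995). For *Clu* they were *Ttc9* (r = 0.996), *Rela* (r = 0.994) and *Gsn* (r = 0.993). For *Erg* they were *Lhfp* (r = 0.997), *Homer2* (r = 0.995) and *Bace2* (r = 0.991). For *Dpt* they were *Rtn3* (r = 0.983), *Gjc1* (r = 0.981) and *Smoc1* (r = 0.978), and 25 genes reached 0.95. For *Creb5* they were *Golph3* (r = 0.985), *Tef* (r = 0.985) and *Klhl12* (r = 0.984), whose fitted log2 fold changes were 0.00, -0.05 and -0.16. Spearman's rho could not be used to check the genes named here, since 5 to 80 genes per profile tied at the top and had no order.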

How the data were processed

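Per the study's methods and the submitters' processing notes, cDNA was amplified with a low-input kit that does not mark strand, and single-end reads were aligned to mm10 (GRCm38) with TopHat2 2.0.13 and Bowtie2 2.2.1. The authors counted unambiguously mapped reads per gene with HTSeq and deposited raw counts, which were the input of all tests; the gene annotation is not given in the sources used here. Deposited normalized and rlog values were not used.

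The analysis used edgeR 4.0.16 in R 4.3.3 (filterByExpr at 10 counts and a total of 15, TMM, quasi-likelihood test, prior count 0.125), with the experiment as a block, as in the study's paired design. Deviations from the group means correlated within experiments 1, 2 and 3 (r = 0.197, 0.288 and 0.336 across genes). Log2 CPM used a prior count of 2. No library was a copy of another (chi-square per gene of 192 to 877 over 15 pairs). Cells of several littermates were pooled per experiment, so p-values measure the spread between 3 pools. The fits were tested on simulated data.

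Alternatives were no block, DESeq2 1.42.0, limma-voom (limma 3.58.1), no filter on low counts, a floor of 10 counts for all libraries, edgeR on DESeq2 size factors, and each experiment left out. The genes, lists and tests were chosen with earlier results of these data known. Named were the 8 genes, of each list the genes called and up to 4 others with the highest mean CPM, the 3 genes most like each of the 8 (1 result of this kind is not reported here), and markers needed to show which were present.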

Additional observations from a re-analysis of the deposited data

How the results depend on the processing

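Without the replicate block, 1 gene of all tested was called in LRCs against non-LRCs in place of 166, 1 of the 8 genes in place of 5 (*Clu*), and 0 of the listed companion genes in place of 3, with 1289 genes at an unadjusted p under 0.05 by edgeR. DESeq2 with the block called 799 genes, limma-voom 621 and edgeR on genes with at least 10 counts in every library 434, and 8, 9 and 6 of the companion genes. Leaving out 1 experiment at a time gave 35 (without experiment 1) to 555 (without experiment 2) genes in all, 3 to 5 of the 8 genes and 1 to 8 companion genes. Genes called for a difference between experiments, 0 by edgeR, numbered 932 of 11129 with at least 10 counts in every library and 1 of 17835 without a filter. They numbered 2666 of the 23159 counted by the DESeq2 likelihood ratio test, and 3 to 725 with 1 experiment left out. Of the 8 genes, 3 were called with at least 10 counts in every library, 3 by the likelihood ratio test and 0 to 3 with 1 experiment left out (*Prg4*, *Cilp2* and *Abi3bp* without experiment 3). The log2 fold change of *Creb5* turned to 0.15 without the block and 0.30 by limma-voom and ran from -0.46 to 0.61 with 1 experiment left out; those of *Has2* and *Tgfb2* ran from -0.12 to 0.027 and from -0.14 to 0.17. The signs of the other 7 of the 8 genes were kept under all 9 alternatives. The cause of these shifts was not tested. In the LRC library of experiment 2 a level of 0.143 CPM corresponds to 3 counts, and *Erg* and *Dpt* rest on few reads.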

Other observations

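Further genes of the superficial and synovial list stood out after their values were seen. *Htra4*, a secreted serine protease, was counted 5435, 0 and 2157 times in LRCs of experiments 1, 2 and 3 and 315, 31 and 91 times in non-LRCs. Its LRC levels were 46.5 and 50.2 CPM in experiments 1 and 3, and the 0 of experiment 2 allows up to 0.143 CPM for counting error only, below the 0.812 CPM of its non-LRC partner. *Tspan15*, a tetraspanin, was at 12.0, 9.32 and 6.70 CPM in LRCs and 1.41, 2.28 and 0.744 CPM in non-LRCs, with a log2 fold change of 2.76 ± 0.49 (edgeR adjusted p = 0.0620); it was called by DESeq2, by limma-voom, with at least 10 counts in every library and without experiment 2. *Wnt4*, a Wnt ligand of the joint, ran the other way, at 19.0, 24.4 and 27.2 CPM in LRCs and 35.6, 43.4 and 37.0 CPM in non-LRCs (-0.73 ± 0.20, edgeR adjusted p = 0.138). Of the 21 genes of this list tested, 14 had a fitted value above 0 and 7 below. Among the 7 was also *Col22a1* (-2.26 ± 1.13), not called and with 1 count in the LRC library of experiment 2.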
